A study of Mus musculus with 12 samples.

Results

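Mouse kidneys removed at embryonic day E11.5 and kept in culture for 7 days were compared with kidneys taken fresh at E17.5, to ask what an explant lacks and what it adds beside a kidney that grew in the embryo. The comparison rests on 2 of the 12 one-colour Agilent arrays of the study, 1 per group, chosen by their titles. Both samples were wild-type ICR mice. The E17.5 sample was whole kidney without its ureter. The explant grew on a transwell membrane in 50% Matrigel and DMEM/F12 medium with 10% fetal bovine serum, and its label does not say whether the ureter was removed. Neither label gives the number or the sex of the embryos, or says whether kidneys were pooled. By days since conception the explant had reached 18.5, between E17.5 and birth. Fresh kidneys at E11.5, E13.5, E15.5 and postnatal day 0 (P0), 1 array each, and 3 arrays of reconstructed kidney organoids cultured for 7 days gave the frame for single values. With 1 array a group there is no replicate check of any difference below, and no test was possible.

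At E11.5 the kidney is a ureteric bud that has just entered the metanephric mesenchyme. The bud branches into the collecting ducts, and its tips keep a cap of nephron progenitors alive while Wnt signals send some of these cells into vesicles that elongate, pattern into segments and become podocytes, proximal tubule, loop of Henle and distal tubule. Stroma, vessels, nerves and blood cells belong to the organ as well. In the embryo, blood flows through the kidney and its glomeruli begin to filter, whereas an explant has neither circulation nor filtrate, and lives on medium that reaches it by diffusion.

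Level here means the log2 of the processed signal of a gene's probe minus the 75th percentile of all probes on that array, so 0 is the 75th percentile. Levels of 1 gene were compared between arrays, and levels of different genes were not. Of 18240 genes well above background on at least 1 of both arrays, 1419 (7.78%) were at least 2-fold higher in the cultured kidney and 1848 (10.1%) at least 2-fold lower. The median difference, cultured minus E17.5, was 0.02, with quartiles of -0.36 and 0.38. Larger differences were more often losses: 371 genes (2.03%) were at least 4-fold higher and 803 (4.40%) at least 4-fold lower. Background correction by normexp, which pulls dim signals together, left 494 higher and 734 lower. Of the lower genes 779 were well above background on the E17.5 array only, and 318 of the higher ones on the cultured array only. Such genes are given as "at least N-fold", against the lowest probe well above background on the other array or the dim probe itself, whichever was higher.

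**Figure D1:**
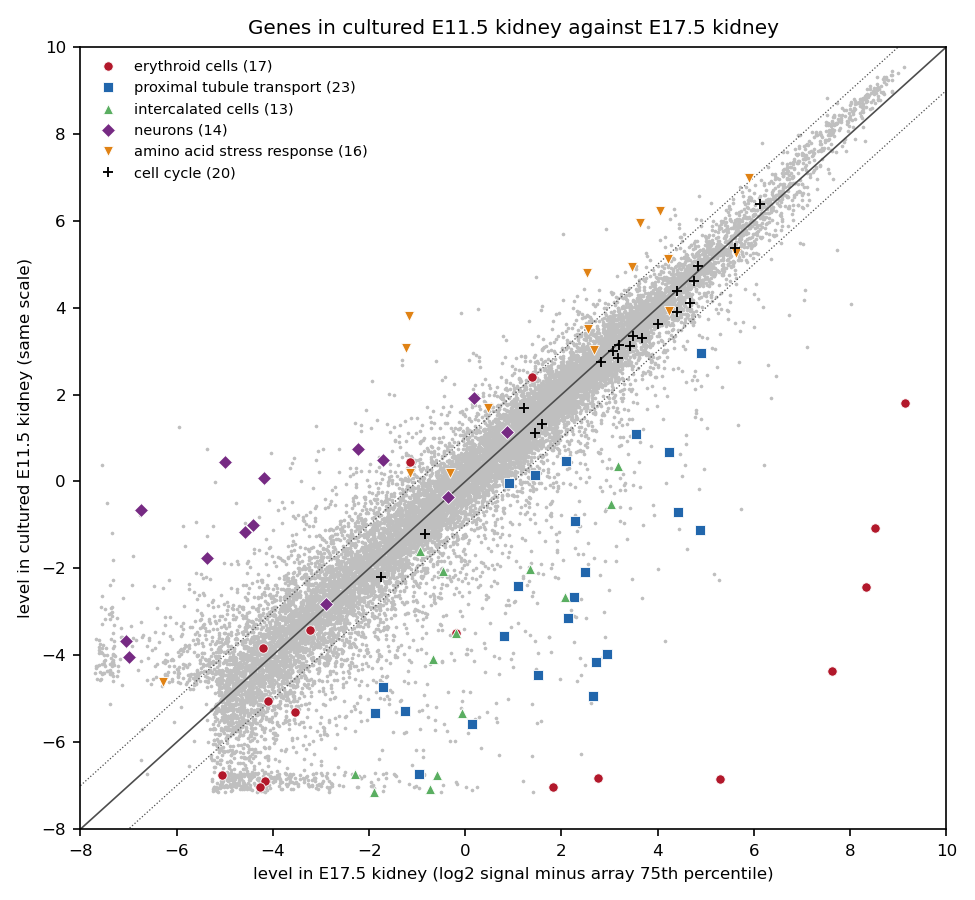
Level in the cultured E11.5 kidney (vertical axis) against level in E17.5 kidney (horizontal axis), both as log2 signal minus the array's 75th percentile. Each grey point is 1 of 18240 genes, coloured symbols are members of 6 gene lists with their number in the legend, the solid line marks equal levels and the dotted lines 2-fold. Below the lower line lie 12 of 17 erythroid, 22 of 23 proximal tubule and 12 of 13 intercalated cell genes, above the upper line 11 of 14 neuronal and 10 of 16 amino acid stress genes, and between the lines all 20 cell cycle genes.

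Between the cultured kidney and E17.5, 17.9% of genes were at least 2-fold apart in either direction. The share was 14.9% against E15.5, 21.5% against E11.5, 22.3% against E13.5 and 21.8% against P0. The later neighbouring fresh stages were closer, with 7.89% between E15.5 and E17.5 and 7.79% between E17.5 and P0. Earlier neighbouring stages were not compared in this way. Pairs of organoid arrays of the same day, the only replicates in the study, had 2.84% to 4.06% of genes 2-fold apart. The SD of a gene over the 3 day 7 organoid arrays had a median of 0.10 and a 95th percentile of 0.58, as a guide to the spread between arrays of 1 kind, not to that between explants. Both arrays lay on the same slide, none of their spots was saturated, and 57.6% of probes on the cultured and 61.9% on the E17.5 array were well above background.

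**Figure D2:**
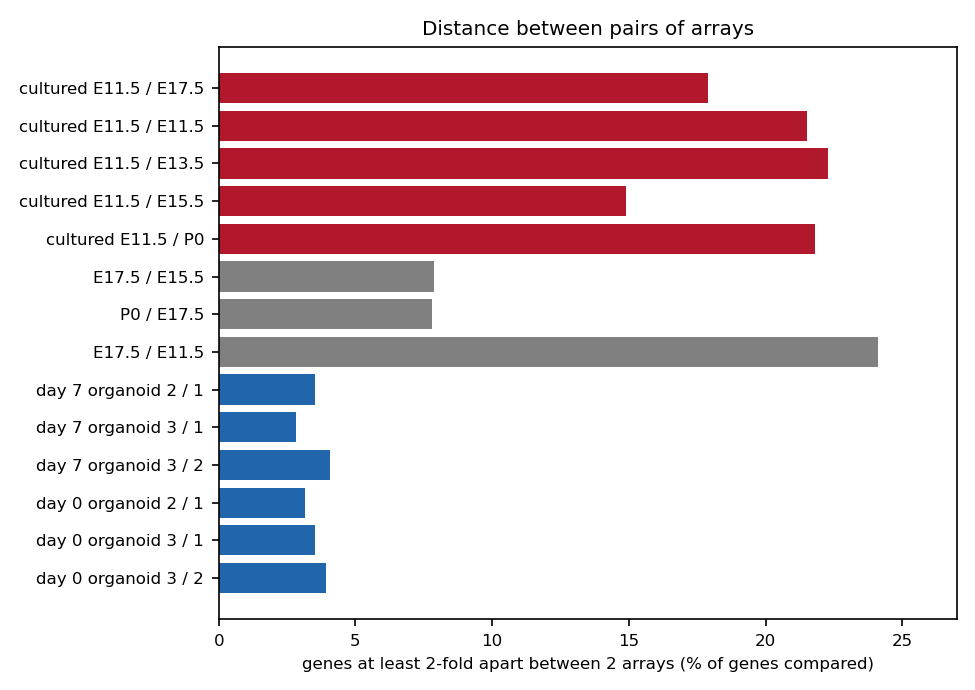
Share of genes at least 2-fold apart between 2 arrays, as a percent of genes compared, for the cultured kidney against each fresh stage (red), pairs of fresh stages (grey) and pairs of organoid replicates (blue). The cultured kidney stands 14.9% to 22.3% apart from the fresh stages, nearest to E15.5, while replicate organoids stand at most 4.06% apart.

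The samples differed in sex-linked RNA. Xist, which is transcribed from the inactive X chromosome, had a level of 0.38 in the cultured kidney and -7.54, not well above background, at E17.5, a difference of at least 53.9-fold. The Y-linked genes ran the other way. Ddx3y stood at -6.89 and 1.21 (at least 80.6-fold lower in culture), Eif2s3y at -5.51 and 1.57 (at least 104-fold) and Uty at -6.79 and -2.22 (at least 7.49-fold, and -0.67 in log2 with normexp). Fresh E11.5, E13.5 and E15.5 kidneys had both Xist, from -2.73 to 0.01, and Ddx3y, from -0.84 to 0.85. The P0 kidney resembled E17.5, with Xist at -5.92 and Ddx3y at 1.18. The part of this difference in the other results, among them that of the androgen-responsive gene Kap given below, was not tested.

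Genes were then read in 41 lists ordered by cell type and programme. In 9 lists the median difference was below -1, in 4 above 1, and in the other 28 it lay between. In a whole organ, fewer cells of a type and less RNA per cell cannot be told apart.

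**Figure D3:**
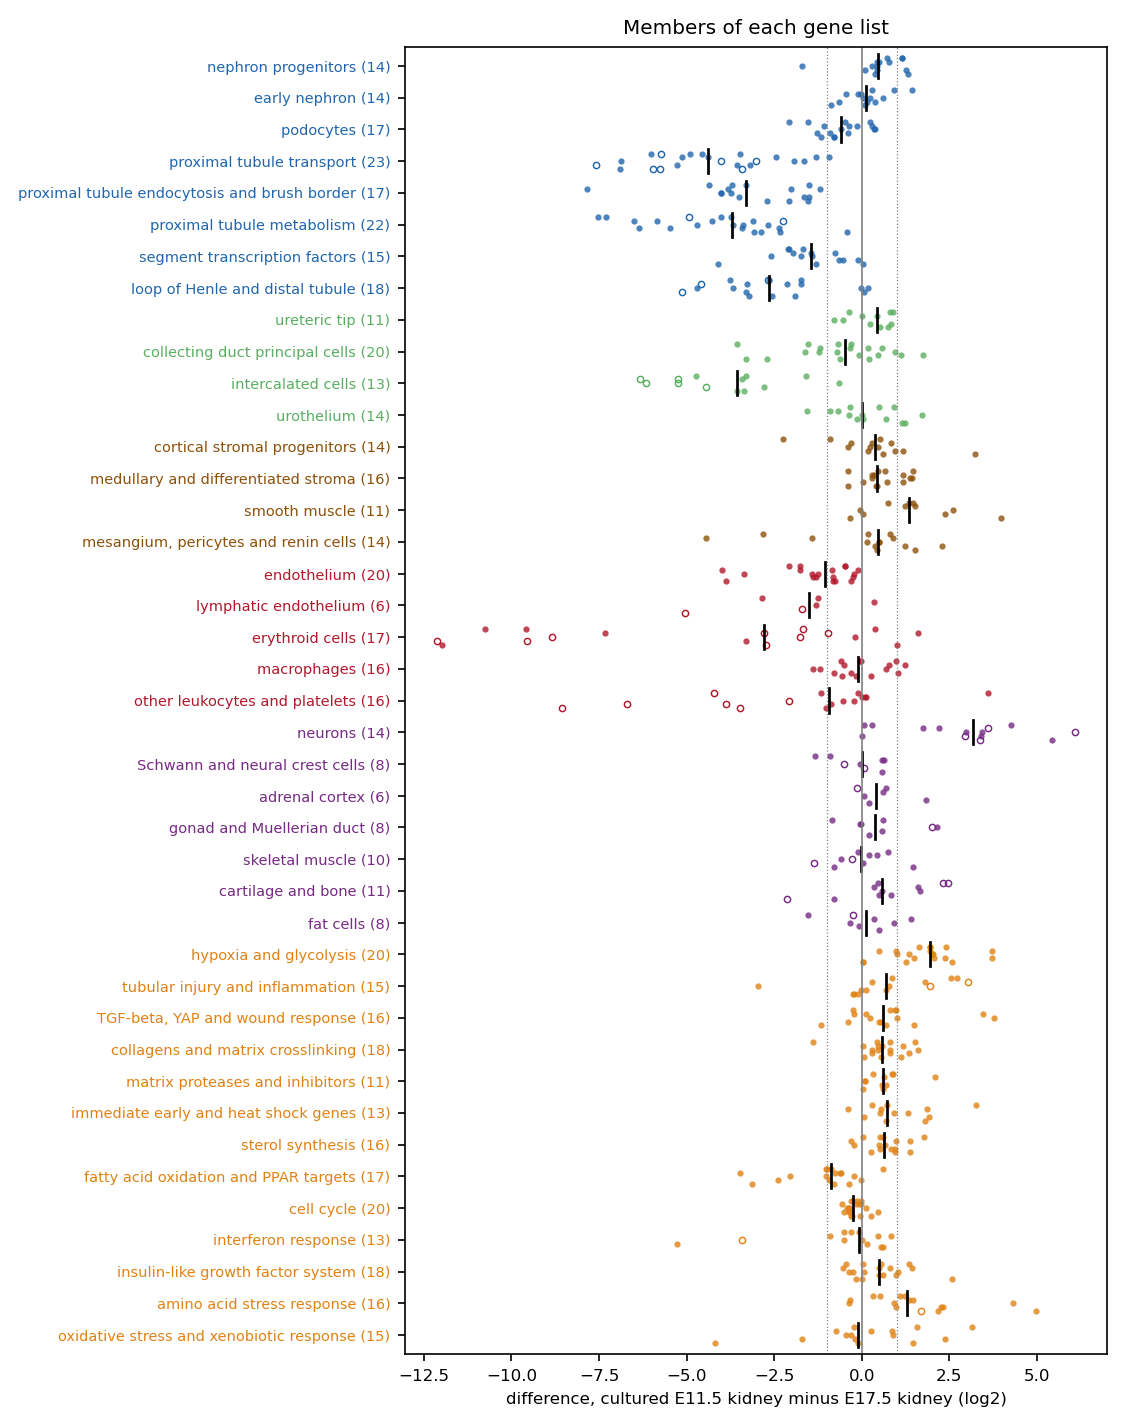
Difference in level, cultured E11.5 kidney minus E17.5 kidney (log2), for each compared member of 41 gene lists, with the number of members in brackets. Filled points were well above background on both arrays and open points on 1 array, black bars are medians, dotted lines mark 2-fold, and colours separate nephron, ureteric, stromal, vascular and blood, other cell type and culture-linked lists. Proximal tubule medians lie between -4.38 and -3.31, the neuron median at 3.18 and the cell cycle median at -0.26.

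Most nephron progenitor genes stood near or above their E17.5 level after culture. Of 14 progenitor genes, 4 were at least 2-fold higher, 1 lower and 9 between, with a median of 0.46. Six2, the factor that keeps cap cells undifferentiated, read 5.62 in the cultured kidney against 6.05, 5.71, 4.98, 4.47 and 3.71 in fresh kidney, in order of stage from E11.5 to P0. That value lay between those of E13.5 and E15.5, 2.21-fold above E17.5 (0.97 in log2 as the mean of its probes). Osr1, an early marker of nephron precursors, was 2.47-fold higher (0.65 against -0.65), Crym 2.38-fold (4.30 against 3.05) and Hoxd11, which patterns the metanephros, 2.19-fold (2.75 against 1.62). Cited1, confined to the most naive cap cells, was 1.71-fold higher. Dapl1 was the 1 member lower, at -2.74 against -1.03, a difference of -1.70 that was -0.84 with normexp.

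Genes of the first steps of nephron formation stood at nearly the same level in both samples. Of 14, 1 was at least 2-fold higher and 13 between, with a median of 0.12. Relative to E11.5, 9 of the 14 were at least 2-fold higher in the cultured kidney, and 9 at E17.5; over all genes compared these shares were 13.0% and 15.1%. Wnt4, the signal that drives mesenchyme to become epithelium, was 2.69-fold higher in culture (5.20 against 3.77), above all 5 fresh stages. The levels of Pax8 (2.17 and 2.18), Lhx1 (1.64 and 1.62) and Jag1 (2.75 and 2.59), which act in the vesicle and its patterning, differed by at most 0.16 in log2. Hes5, a Notch target, had the lowest difference of the list, at 0.87 against 1.76.

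Podocytes, the filtering cells of the glomerulus, had reached much of their E17.5 programme. Of 17 genes, 5 were at least 2-fold lower in the cultured kidney and 12 between, with a median of -0.60. Nphs1, the slit diaphragm protein nephrin, read -2.66 after culture, against -4.94, -3.66, -1.25, -0.57 and -0.29 across the fresh stages. It was thus 4.26-fold below E17.5, between its E13.5 and E15.5 levels. Rhpn1 was 2.92-fold lower, Ptpro 2.23-fold (0.97 log2 units with normexp) and Podxl 2.42-fold. The mean of the Podxl probes differed by 0.04, but only 1 of them passed the background filter. Wt1 and Tcf21, transcription factors of podocytes and their precursors, were within 2-fold.

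The proximal tubule differed most among the nephron segments. Of 23 transporter genes, 22 were at least 2-fold lower in the cultured kidney and 1 between, with a median of -4.38. The median level of the list was -2.65 after culture, against -3.91, -3.83, 0.20, 2.13 and 3.76 from E11.5 to P0, so it lay between E13.5 and E15.5. Slc34a1, the sodium-phosphate cotransporter of the brush border, read -1.12 in the cultured kidney and 4.88 at E17.5, a 64.3-fold difference, against -7.36 at E11.5 and -3.83 at E13.5. Slc22a2, an organic cation transporter, was 121-fold lower (-3.98 against 2.94) and Slc3a1, the heavy subunit of the cystine transporter, 118-fold (-4.17 against 2.72). Slc5a2, the sodium-glucose cotransporter SGLT2, was well above background at E17.5 (2.65) but not after culture (-4.93), at least 192-fold lower. Even so, 15 of the 23 were at least 2-fold above their own E11.5 level, as were 13.0% of all genes. Slc4a4, the basolateral bicarbonate transporter, was the 1 member within 2-fold, at -0.04 against 0.90. With normexp the list median was -2.47.

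All 17 compared genes of protein uptake and the brush border were lower as well, with a median of -3.31. Lrp2, the endocytic receptor megalin, stood at 1.48 against 4.78 (9.90-fold lower), with fresh values of -0.50 at E13.5 and 3.32 at E15.5. Cubn, its partner cubilin, was 14.1-fold lower. The brush border protease subunits Mep1a and Mep1b diverged in size: Mep1a was 20.5-fold lower and Mep1b 228-fold, at -3.68 against 4.15. Pdzk1, a scaffold for apical transporters, was 16.4-fold lower but at 2.43 still above its E11.5 level of -2.43.

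Of 22 genes of proximal tubule metabolism, 21 were at least 2-fold lower (20 when limits were set at background) and the median was -3.71. Miox, the kidney enzyme that degrades inositol, read -2.12 in the cultured kidney and 5.17 at E17.5 (157-fold lower). The glutathione transferase Gsta2 was 186-fold lower (-2.27 against 5.27), the androgen-responsive kidney gene Kap 82.8-fold (-2.69 against 3.68) and Ugt2b38 91.6-fold. Fbp1, an enzyme of gluconeogenesis, was 57.6-fold lower at 0.37 against 6.22. Khk, the fructokinase, was the member within 2-fold (2.89 against 3.31).

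Transcription factors of the segments were lower by less. Of 15, 10 were at least 2-fold lower and 5 between, with a median of -1.46. Hnf4a, required for proximal tubule differentiation, read 2.64 after culture against -5.26, 2.26, 4.61, 5.22 and 5.54 across the stages, 5.99-fold below E17.5. Nr1h4, the bile acid receptor, was 17.3-fold lower and Tfap2b, a distal nephron factor, 4.28-fold. In RefSeq promoter windows (GRCm38.p6, 250 bases before to 50 after a start), which matched 52 of the 63 different genes in the proximal tubule lists, the HNF4 sequence CAAAGTCCA was found for 3 genes (Pdzk1, Agxt2 and Slc3a1), or 5.77%, against 0.555% of all genes with a window. Both strands were searched, and a match is a description of the letters only.

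Loop of Henle and distal tubule genes were lower in 15 of 18 cases, with a median of -2.66 and no member higher. Umod, the urinary protein uromodulin of the thick ascending limb, stood at -1.0 against 3.70 (25.9-fold lower), between its E13.5 level of -3.50 and its E15.5 level of 0.22. Slc12a1, the loop's sodium-potassium-chloride cotransporter, differed by -3.75 in log2 (-2.84 against 0.92). Cldn16 of the paracellular magnesium path and Slc12a3, the distal sodium-chloride cotransporter, were not well above background in culture and at least 25.8-fold and 22.9-fold lower. Relative to E11.5, 11 of the 18 were at least 2-fold higher after culture and 15 at E17.5 (13.0% and 15.1% of all genes). Calb1, Slc8a1 and Wnk1 were within 2-fold.

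In the ureteric lineage the tips and the mature ducts diverged. None of 11 tip genes was 2-fold apart, and the median was 0.43. Ret, the receptor through which Gdnf drives branching, stood at 0.89 against 0.09 at E17.5 and 1.01 at E11.5. Wnt11, a tip signal, read 0.58 against 1.11. Gdnf itself, made by the progenitors, was 1.34-fold higher in culture. The feedback inhibitor Spry1 had the largest difference of the list, 4.73 against 3.84.

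Principal cells of the collecting duct were partly behind. Of 20 genes, 2 were at least 2-fold higher, 7 lower and 11 between, with a median of -0.48. Aqp2, the vasopressin-regulated water channel, was 11.9-fold lower at -0.68, against -1.91, -1.63, 0.46, 2.90 and 3.46 across the stages. Kcnj1, the potassium channel ROMK that the loop shares, was 9.83-fold lower, and Scnn1a, a subunit of the epithelial sodium channel, 6.47-fold. The other subunits, Scnn1b and Scnn1g, were within 2-fold. Krt19, an epithelial keratin, was 3.38-fold higher in culture (4.0 against 2.24) and Wnt7b, a ureteric signal to the medulla, 2.19-fold.

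Genes of intercalated cells, which secrete acid or base, were lower than at E17.5 in nearly every case. Of 13 genes, 12 were at least 2-fold lower than at E17.5 and the median was -3.56. In the cultured kidney 3 of the 13 were at least 2-fold above E11.5 and 3 below (13.0% and 8.54% of all genes). At E17.5, by contrast, 11 were above (15.1% of all genes). Slc4a1, which is also in the erythroid list, was among the 3 genes below E11.5 in culture (-3.50 against 1.91). The part of red cells in that count was not tested. Foxi1, the factor that specifies these cells, read -2.66 after culture against -3.15, -1.19, 1.46, 2.06 and 2.17 across the stages, 26.4-fold below E17.5. Pendrin (Slc26a4), the receptor gene Oxgr1 and the proton pump subunit Atp6v0d2 were not well above background in culture, and at least 33.2-fold, 20.8-fold and 23.2-fold lower. Slc4a9 was the member within 2-fold by the probe used (-0.66), while its other compared probe differed by -6.68. With normexp the list median was -1.62. Urothelial genes, by contrast, were 3 higher, 1 lower and 10 between (median 0.02), with Upk3a at 2.69 against 2.81.

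**Figure D4:**
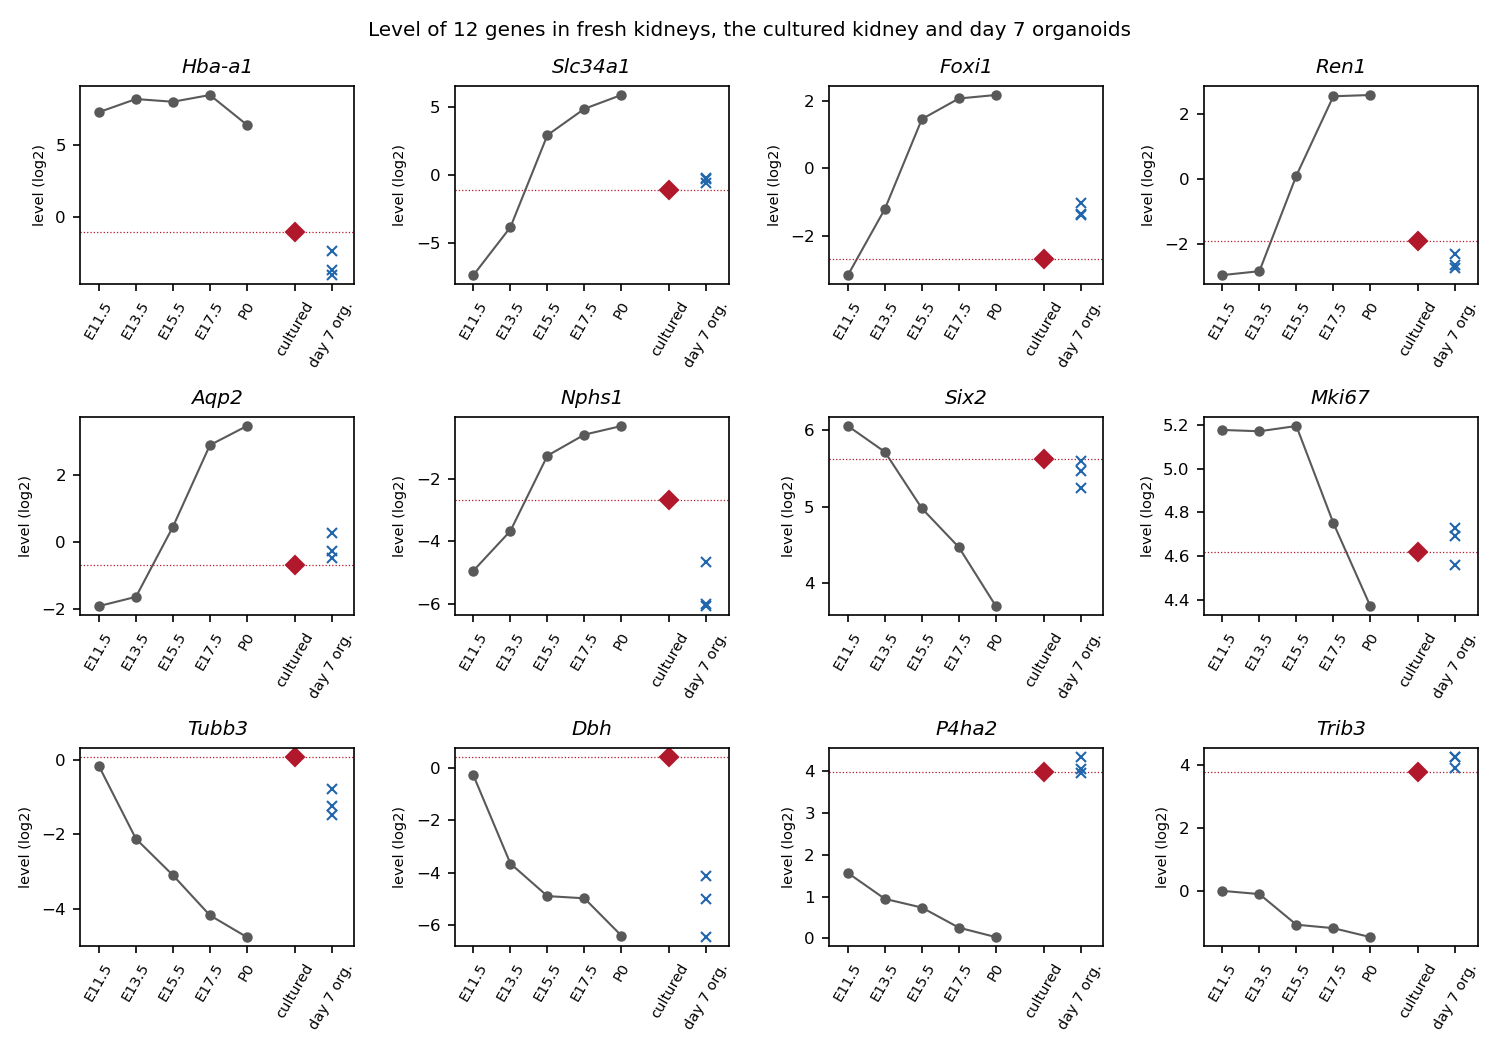
Level (log2 signal minus the array's 75th percentile) of 12 genes in fresh kidney at 5 stages (grey line), the cultured E11.5 kidney (red diamond and dotted line) and 3 day 7 organoid arrays (blue crosses); each panel has its own vertical scale. Hba-a1 lies below every fresh stage, Foxi1 and Ren1 lie near their early levels, Six2 between E13.5 and E15.5, and Dbh, P4ha2 and Trib3 above every fresh stage.

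Most stromal genes were within 2-fold, and smooth muscle genes were higher. Of 14 genes of cortical stromal progenitors, 2 were at least 2-fold higher, 1 lower and 11 between (median 0.37). Foxd1, which marks these progenitors, read 1.47 against 0.95 at E17.5 and 3.79 at E11.5. Tbx18, a factor of ureteric and early stromal mesenchyme, was 9.42-fold higher (-0.66 against -3.90), at a level between those of E11.5 (0.97) and E13.5 (-0.94). Crabp1, a retinoic acid binding protein, was 4.76-fold lower and below all fresh stages. In differentiated stroma 5 of 16 were higher and 11 between (median 0.44), among them the matrix genes Mgp (2.76-fold) and Lum (2.57-fold). Penk, of the medullary stroma, stood at -0.31 at E11.5, 5.99 at E17.5 and 6.45 in the cultured kidney.

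Of 11 smooth muscle genes, 7 were at least 2-fold higher in the cultured kidney and 4 between, with a median of 1.35. At least 2-fold above all 5 fresh stages lay 5 of them, as did 2.43% of all genes. Actg2, the enteric actin of visceral smooth muscle, was 15.7-fold higher (3.88 against -0.09), while its fresh levels ran from -3.45 to 0.50. Myh11, the smooth muscle myosin heavy chain, was 6.02-fold higher and Cnn1, calponin, 5.20-fold. Myocd, the coactivator that switches on this programme, was 2.87-fold higher (0.48 against -1.04). Acta2 was 1.68-fold higher, at 6.20 against 5.46. The E17.5 kidney was taken without ureter, and uroplakins and other urothelial genes, given above, had a median difference of 0.02; a part of the ureter in the smooth muscle result was not tested.

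Mural cells of the vessels split. Of 14 genes of mesangium, pericytes and renin cells, 3 were higher, 3 lower and 8 between. Ren1, which encodes renin, stood at -1.91 against -2.95, -2.83, 0.11, 2.55 and 2.59 across the stages, 22.0-fold below E17.5. Akr1b7, another gene of renin cells, was 7.04-fold lower (-0.45 against 2.36). The pericyte channel subunits Abcc9 and Kcnj8 were 4.90-fold and 2.87-fold higher, and Pdgfrb 1.74-fold.

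Endothelial genes were lower in part. Of 20, 10 were at least 2-fold lower, none higher and 10 between, with a median of -1.04 (-0.92 with the mean of probes), and 12 lay below all 5 fresh stages by any amount (19.5% of all genes did), 3 of them by at least 2-fold (1.19% of all genes). Plvap, a protein of endothelial fenestrae, read -0.03 in the cultured kidney against 2.61 to 3.57 in the fresh kidneys, 10.3-fold below E17.5. The angiopoietin receptor Tek was 14.8-fold lower (-3.86 against 0.03) and the apelin receptor Aplnr 15.8-fold (-3.87 against 0.11), both below every fresh stage. General endothelial genes were split. Sox17, Tie1, Emcn, Eng, Flt1 and Cldn5 were at least 2-fold lower, with differences from -2.08 (Sox17) to -1.24 (Cldn5). Cdh5 (VE-cadherin) stood at 2.14 against 2.24, Kdr (VEGF receptor 2) at 2.85 against 3.08, and Pecam1 at -0.87 against -0.38. Lymphatic genes were lower in 5 of 6 cases (median -1.50, and -0.51 with normexp), from dim levels: Mmrn1 was at least 11.2-fold lower and Stab2 7.21-fold, and both were under 2-fold with normexp.

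The 3 lowest differences of genes measured on both arrays were those of globins. Of 17 erythroid genes, 12 were at least 2-fold lower (9 when limits were set at background), 2 higher and 3 between. Hba-a1, an adult alpha globin, read -1.07 in the cultured kidney and between 6.43 and 8.52 in the 5 fresh kidneys, a 771-fold difference from E17.5. The adult beta globins Hbb-b2 and Hbb-bt were 4035-fold (-4.35 against 7.62) and 1738-fold lower (-2.43 against 8.34), and Hbb-b1 at least 1369-fold. Globin copies are near-identical, so their probes may share signal. Alas2, which starts heme synthesis in red cells, and Ahsp, which stabilises alpha globin, were at least 236-fold and 123-fold lower. Embryonic Hbb-y ran the other way, at 0.45 against -1.15, but stood at 8.87 in E11.5 kidney. The median over the list was -2.78, or -1.59 with limits and -0.06 with normexp. The day 7 organoids had Hba-a1 levels from -4.10 to -2.41.

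Macrophage genes stayed near E17.5 levels. Of 16, 2 were higher, 2 lower and 12 between, with a median of -0.11. Csf1r, the receptor on which macrophages depend, stood at 2.51 against 3.1, and C1qc, a complement subunit they make, at 0.58 against 0.33. Mrc1, the mannose receptor, was 2.29-fold lower and Cd14, the endotoxin co-receptor, 2.33-fold higher; both differences were under 2-fold with normexp. Of 16 genes of other leukocytes and platelets, 8 were lower (7 with limits) and 1 higher. The neutrophil proteins S100a8 and S100a9 were not well above background in culture and at least 30.5-fold and 92.4-fold lower. Mpo, the myeloperoxidase of granulocyte precursors, was 12.2-fold higher (-0.97 against -4.57), near its E11.5 level of -1.35.

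Neuronal genes were higher in the cultured kidney in 11 of 14 cases, with no member lower and a median of 3.18 (1.5 with normexp). Tubb3, the neuronal tubulin, read 0.07 after culture against -0.17, -2.13, -3.10, -4.18 and -4.76 from E11.5 to P0. It was lower at each later fresh stage, while the explant stood near E11.5. The median level of the whole list followed the same course, from -0.17 at E11.5 to -5.05 at P0, with -0.50 in the cultured kidney. Dbh, which makes noradrenaline, was 43.0-fold higher (0.44 against -4.99) and Phox2a, a factor of autonomic neurons, by 3.42 in log2 (-1.17 against -4.59). Prph, the filament peripherin, was at least 26.2-fold higher. Tyrosine hydroxylase (Th), which acts before Dbh, stood at -0.35 and -0.36.

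Neuropeptide genes were among the largest gains. Sst, somatostatin, had the largest gain of the genes measured on both arrays, at 0.74 against -5.37 (68.9-fold), with -0.79 at E11.5 and -6.22 at P0. Tac1, which encodes substance P, was 36.2-fold higher (-0.02 against -5.19) and Tac2, which encodes neurokinin B, 19-fold (2.31 against -1.94). All 3 were above all 5 fresh stages, Tac1 by 3.81, Tac2 by 3.74 and Sst by 1.53. Scg2, a granin of secretory vesicles, was at least 18.3-fold higher and dim in every fresh kidney. Glial genes differed little: of 8 Schwann and neural crest genes 1 was lower and 7 between.

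Most compared genes in the lists for tissues next to the kidney were within 2-fold. Over all genes, 7.78% were at least 2-fold higher and 10.1% lower. The lists are small and partly undetected, so they cannot show what was dissected. For adrenal cortex, 1 of 6 compared genes was higher, and Cyp11a1, Cyp11b1, Cyp11b2 and Hsd3b1 were not well above background on either array. For gonad 2 of 8 were higher, for skeletal muscle 1 of 10 was higher and 1 lower, and for fat 1 of 8 each way. For cartilage and bone 4 of 11 were higher and 1 lower (Comp, which was well above background at E17.5 only, and at least 1.44-fold lower). Among those higher was Col2a1 (3.03-fold), whose level of 3.93 lay below the 4.57 of fresh E11.5 kidney.

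Genes of the response to low oxygen and of glycolysis were higher in 16 of 20 cases, with none lower and a median of 1.95. When oxygen falls, the factor HIF escapes hydroxylation and binds a core sequence in the promoters of glycolytic and vascular genes. Of the 20, 13 lay at least 2-fold above all 5 fresh stages, where 465 of 19174 genes did so (2.43%). Car9, a carbonic anhydrase and classical HIF target, read 0.76 in the cultured kidney against -2.95 to -2.39 in the fresh kidneys, 13.1-fold above E17.5. P4ha2, a collagen prolyl hydroxylase, was 13.1-fold higher (3.97 against 0.25), Hk2, which commits glucose to glycolysis, 5.99-fold (2.87 against 0.29) and Ankrd37 5.32-fold (3.25 against 0.84). Vegfa, the growth factor of endothelium, was 3.89-fold higher, at 4.43 against 1.82 to 2.47 in the fresh stages. The glucose transporter Slc2a1 was 4.13-fold higher and Bnip3, which removes mitochondria, 3.83-fold. Ndrg1, Pfkfb4, Ak4 and Ldha were within 2-fold.

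The HIF core ACGTG, searched on both strands so that CACGT counts as well, stood in the promoter window of 14 of the 19 list genes with a window (73.7%) and of 21.8% of all 27025 genes. Counted by window rather than by gene, the shares were 50.0% and 19.6%. Of those 14 genes, 12 were at least 2-fold higher and Ak4 and Ldha were between, beside 16 higher of 20 in the whole list. The promoters of Car9, Ankrd37 and P4ha2 are shown because these genes were among the most raised of the list. Each line gives the 250 bases before the start, 5′ to 3′ on the gene's strand, from RefSeq on GRCm38.p6, with the core in capitals.
Car9 (chr4:43506776-43507025, + strand): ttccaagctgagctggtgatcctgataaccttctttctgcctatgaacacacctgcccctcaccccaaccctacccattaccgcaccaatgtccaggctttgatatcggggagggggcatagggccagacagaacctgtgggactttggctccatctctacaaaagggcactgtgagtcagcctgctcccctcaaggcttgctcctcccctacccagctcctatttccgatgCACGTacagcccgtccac
Ankrd37 (chr8:45999851-46000100, - strand): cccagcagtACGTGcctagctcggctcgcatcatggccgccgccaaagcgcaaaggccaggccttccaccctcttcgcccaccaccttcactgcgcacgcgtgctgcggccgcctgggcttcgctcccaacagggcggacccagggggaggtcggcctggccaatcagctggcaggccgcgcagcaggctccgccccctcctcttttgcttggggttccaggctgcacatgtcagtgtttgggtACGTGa
P4ha2 (chr11:54100674-54100923, + strand): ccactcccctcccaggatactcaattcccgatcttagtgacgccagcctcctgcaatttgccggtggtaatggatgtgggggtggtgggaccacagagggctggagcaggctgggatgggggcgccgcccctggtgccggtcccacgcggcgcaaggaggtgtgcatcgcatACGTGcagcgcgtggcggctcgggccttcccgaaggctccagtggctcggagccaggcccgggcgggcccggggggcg
In Car9 the match begins 18 bases before the start, in Ankrd37 at 241 and 6 bases before it and in P4ha2 at 78 bases before it. A match describes letters, not binding.

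Genes of the amino acid and integrated stress response were higher in 10 of 16 cases (9 with limits), with none lower, and the median was 1.28 (0.98 with normexp). In this response Atf4 is translated when amino acids run short or proteins misfold, and it turns on amino acid transport and synthesis. Trib3, a pseudokinase induced by Atf4, read 3.80 in the cultured kidney against 0.01, -0.09, -1.06, -1.17 and -1.46 across the stages, 31.4-fold above E17.5. Chac1, which degrades glutathione, was 19.8-fold higher (3.07 against -1.24), with fresh levels from -1.72 to -1.17. The cultured value lay above the highest fresh one by 3.79 for Trib3 and by 4.24 for Chac1. Aldh1l2, a mitochondrial folate enzyme outside the list, was 17.8-fold higher (0.01 against -4.15). Ddit4, an inhibitor of mTOR signalling, was 4.93-fold higher, Asns, asparagine synthetase, 4.83-fold (4.80 against 2.53) and Atf5 4.5-fold. Atf4 mRNA was 2.14-fold higher. The serine synthesis genes differed: Psat1 was 2.75-fold higher while Phgdh, at 5.25 against 5.62, was within 2-fold. In the 3 day 7 organoid arrays Trib3 levels were 3.90 to 4.26, near that of the explant.

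The Atf4 element TGATGNAA, on either strand, stood in the window of 5 of 15 list genes (33.3%) and of 4.51% of all genes. Counted by window, the shares were 27.8% and 3.97%. In the whole list 10 of 16 genes were at least 2-fold higher. Chac1, Trib3, Slc7a11 and Asns, which hold the element, were at least 2-fold higher as measured, and Vldlr was 1.87-fold higher. In Trib3 the match lies after the start, and the promoters of the other 3 raised genes are shown in the same way, with the element in capitals.
Chac1 (chr2:119350992-119351241, + strand): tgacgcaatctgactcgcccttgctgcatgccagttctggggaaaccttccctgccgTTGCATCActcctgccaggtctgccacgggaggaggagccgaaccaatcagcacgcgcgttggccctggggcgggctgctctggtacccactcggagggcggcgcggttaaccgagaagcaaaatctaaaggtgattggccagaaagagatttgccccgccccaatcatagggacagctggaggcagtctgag
Slc7a11 (chr3:50443614-50443863, - strand): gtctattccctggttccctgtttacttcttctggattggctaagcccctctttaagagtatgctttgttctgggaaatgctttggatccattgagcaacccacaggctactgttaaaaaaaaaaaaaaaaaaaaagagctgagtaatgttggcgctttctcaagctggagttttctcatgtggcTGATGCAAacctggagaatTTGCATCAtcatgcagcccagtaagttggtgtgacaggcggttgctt
Asns (chr6:7693210-7693459, - strand): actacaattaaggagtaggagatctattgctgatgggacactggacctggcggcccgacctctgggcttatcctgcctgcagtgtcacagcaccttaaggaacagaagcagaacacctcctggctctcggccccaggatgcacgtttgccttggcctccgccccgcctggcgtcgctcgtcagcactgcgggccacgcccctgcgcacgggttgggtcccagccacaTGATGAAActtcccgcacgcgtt
The match begins 193 bases before the start in Chac1 and 23 bases in Asns. Slc7a11, the cystine transporter, holds the element at 66 and 47 bases before its start, once on each strand. Its level was -4.61 in culture and not well above background at E17.5, a gain of at least 1.70-fold.

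Wound, inflammatory and matrix genes were higher in smaller numbers, beside 7.78% higher and 10.1% lower among all genes compared. Of 15 genes of tubular injury and inflammation, 5 were higher, 1 lower and 9 between. Lcn2, the iron-binding lipocalin NGAL, was 6.60-fold higher (2.79 against 0.07) and the monocyte chemokine Ccl2 5.87-fold (-0.56 against -3.11), both above every fresh stage. Spp1, osteopontin, was 7.82-fold lower (-1.60 against 1.37). Of 16 genes of the TGF-beta, YAP and wound list, 3 were higher and 1 lower. Ltbp2, a matrix protein, was 13.6-fold higher (0.70 against -3.06) and above every fresh stage.

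Of 18 collagen and crosslinking genes, 5 were higher, 1 lower and 12 between, with a median of 0.56. All 5 fresh stages were exceeded by 14 genes by any amount (19.5% of all genes), 4 of them by at least 2-fold (2.43% of all genes). Col6a1 was 2.85-fold higher (5.56 against 4.05) and the crosslinking enzyme Loxl2 2.54-fold. Col14a1 was 2.63-fold lower. Mmp9 was the 1 of 11 matrix protease genes past 2-fold, 4.25-fold higher from dim levels (0.94 in log2 with normexp). That count is near the 7.78% of all genes that were higher. Among 13 immediate early and heat shock genes 5 were higher and 8 between. Fos was 9.49-fold higher (0.21 against -3.03), Ier3 3.60-fold and Egr1 3.46-fold, all above every fresh stage, while the chaperone cofactors Dnajb1 and Hsph1 were within 2-fold.

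Growth and metabolism differed in parts. None of 20 cell cycle genes was 2-fold apart, and the median was -0.26. Mki67 stood at 4.62 against 4.75 at E17.5 and 5.18 at E11.5. Of 16 sterol synthesis genes 3 were higher and 13 between (median 0.64), with Insig1, a sterol-regulated protein of the endoplasmic reticulum, 3.42-fold higher. Of 17 genes of fatty acid oxidation 6 were lower, none higher and 11 between (median -0.89). Cyp4a10, an omega-hydroxylase, was 11.2-fold lower (-1.58 against 1.90), the fatty acid carrier Fabp3 8.86-fold and Acadm, the medium-chain dehydrogenase, 4.18-fold. Proximal tubules use these enzymes, and the proximal tubule lists had medians from -4.38 to -3.31; their part in this result was not tested.

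In the insulin-like growth factor system 4 of 18 were higher and 14 between. Igfbp1, a secreted binding protein, was 5.93-fold higher (3.35 against 0.78) and above all fresh stages. Hmga2, a fetal growth gene, was 2.71-fold higher at 3.04, against 6.23 at E11.5 and 1.60 at E17.5. Lin28b, which blocks let-7 maturation, was nearly as low in the explant (-2.93) as at E17.5 (-2.48), from 2.31 at E11.5. Among 15 genes of oxidative stress and xenobiotic response 4 were higher and 2 lower. Targets of the aryl hydrocarbon receptor were among the former, with Ahrr 8.88-fold (-0.62 against -3.77) and Cyp1a1 5.16-fold higher (-1.24 against -3.61). Gpx3, the plasma glutathione peroxidase made by proximal tubules, was 18.4-fold lower (-0.03 against 4.17). Of 13 interferon response genes 2 were lower and 11 between, with Rsad2 38.5-fold lower (-4.28 against 0.99) and below every fresh stage.

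The differences were then set beside the other stages. Over all genes compared with E11.5, 13.0% were at least 2-fold above it in the cultured kidney and 8.54% below. The genes counted next were picked by their difference from E17.5. Their counts therefore cannot separate what culture added from what was kept from E11.5. Of the 1419 higher genes, 657 were within 2-fold of their E11.5 level, 700 at least 2-fold above it and 62 below. Of the 1848 lower genes, 1022 were within 2-fold of E11.5, 430 at least 2-fold above it and 396 below. At least 2-fold beyond all 5 fresh stages were 465 genes above and 228 below (2.43% and 1.19% of 19174). Defa-rs4, a defensin-related gene, Ngb, neuroglobin, A2m, a protease inhibitor, Reg3g, an antimicrobial lectin, Scg2, and Gpnmb, a glycoprotein of macrophages and pigment cells, were the 6 named by rule for their measured distance above all fresh stages. None of them was well above background at E17.5, so their differences are bounds with no order. Against E17.5, A2m was at least 29.4-fold higher, Defa-rs4 24.1-fold, Gpnmb 20.4-fold, Ngb 11.8-fold and Reg3g 8.64-fold. Among those far below were the globins Hbb-b1, Hbb-bt, Hbb-b2, Hba-a1 and Hba-a2 and the heme enzyme gene Alas2. Among the other large gains were Sfrp4, a secreted Wnt antagonist (25.8-fold, 0.65 against -4.04), Crisp3 (20.7-fold), Fbxo2, a ubiquitin ligase subunit that binds glycans (17.4-fold), and Muc4, a membrane mucin (at least 17.3-fold). Among the other large losses were the transporter Slc17a3 (116-fold), Serpina6, a corticosteroid binding globulin (120-fold), and the acyl-CoA synthetase Acsm1 (120-fold), all at higher levels at P0 than at E17.5.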

How the data were processed

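Total RNA was amplified, labelled with Cy3 and hybridised to one-colour Agilent arrays, per the labels' protocols. The deposited scanner files hold intensity per spot, background-subtracted by the authors' Feature Extraction run (version 11.5.1.1 per the file headers, 10.7.3.1 per the submitters' processing notes). The deposited series table holds log2 values that differ from log2 of that processed signal by 1 constant per array, with column medians of -3.66 (cultured) and -3.71 (E17.5).

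Control and outlier spots were dropped, spots of a probe were averaged, and log2 signal minus each array's 75th percentile was taken (Python 3.11.15, pandas 2.3.3). RefSeq's gene table gave names to 28026 of 55681 probes through their accession, to 3418 through a current symbol and to 295 through an older one; 2036 kept the file's name and 21906 had none. Each gene took its probe with the highest mean over all 12 arrays. Genes well above background on at least 1 array were compared. A bound replaced the difference where 1 array was below background. Precision is limited by the number of arrays, 1 per group, and no p-value was computed.

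Alternatives were normexp with offset 50 (limma 3.58.1), quantile normalization, median scaling, the deposited table, the mean of probes, detection on all arrays, no filter, and a 4-fold threshold. The comparison and the gene lists were chosen with earlier results of these data known.

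Genes were named by rule: the 12 largest differences each way, the 8 largest bounds each way, the 6 farthest above and below all fresh stages, up to 4 per list and 22 fixed anchors. Predicted genes were passed over. Other names are members or examples chosen after their values were seen, as were the sex-linked genes and the families by symbol.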

Additional observations from a re-analysis of the deposited data

How the results depend on the processing

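Normexp, which compresses dim signals, left 494 genes at least 2-fold higher and 734 lower than E17.5, and 171 above and 33 below all 5 fresh stages. Requiring detection on all arrays compared left 1075 lower genes, 259 above all fresh stages and 89 below. A 4-fold threshold left 371 higher, 803 lower, 137 above all fresh stages and 40 below. Among 2-fold calls, the higher share was 43.4%, between 40.0% and 47.2% under the other settings except detection on all arrays (50.7%). Of 13 lists with a median past 2-fold, normexp brought 3 under it and the mean of probes 1, the endothelium (-0.92). Of 165 named genes past 2-fold, normexp brought 28 under it and median scaling 2 (Lyz2 and Igf1r). The mean of probes brought 3 under it, Six2 (0.97), Col9a1 (0.62) and Podxl, which reversed to 0.041. That mean takes in every probe of a gene, while only 1 Podxl probe passed the background filter. The cause was not tested. Quantile normalization, the deposited table and no filter brought none under it. No paired analysis was possible because each kidney group has 1 array. With 1 array each, variation between explants, litters or cultures is unmeasured, and dim genes carry bounds only.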

Other observations

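Gene families taken by symbol, after values were seen, add to the lists. Of 84 genes with symbols of oxidative phosphorylation subunits, 4 were at least 2-fold higher in the cultured kidney, 2 lower and 78 between. Their median was -0.47, and 57 lay below all 5 fresh stages by any amount, as 19.5% of all genes did, none of them by 2-fold. Cox7b, a subunit of cytochrome c oxidase, stood at 5.13 against 6.36. Ndufa4l2, counted here by its symbol alone, was among those higher, at 4.15 against 2.26. Of 81 cytosolic ribosomal protein genes, 66 lay above all fresh stages by any amount, as 19.5% of all genes did, and none by 2-fold or 2-fold apart from E17.5; their median of 0.55 was 0.10 after quantile normalization.

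Of 18 claudins, 10 were lower and 2 higher (median -1.14, and -0.35 with normexp). Cldn2, a pore of the proximal tubule, differed by -4.74 in log2, while Cldn3 and Cldn4 were higher by 1.95 and 1.77. Of 11 Ugt conjugation enzymes, 10 were lower (median -2.95). Of 16 kallikreins, 9 were lower and 1 higher (median -2.79, and -0.82 with normexp). Of 332 solute carriers, 104 were lower and 23 higher. Of 60 cytochrome P450 genes, 26 were lower and 5 higher, with a median of -0.38 whose sign turned under 2 of 7 alternatives. Keratins were 4 higher, 1 lower and 23 between, and their median (-0.05) turned sign under 4 of 7.

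Of 35 Hox genes, 8 were higher and none lower (median 0.51). Hoxd12 stood at 1.97 against -0.43. Of 17 type IV collagen and laminin genes, 1 was higher and 16 between. Of 15 neuropeptide and granin genes, 10 were higher (median 1.37, and 0.81 with normexp).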
